A study of Mus musculus with 11 samples.

Results

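The genes described are 9 response genes of bone morphogenetic protein (BMP) and transforming growth factor beta (TGF-beta) signalling, taken by symbol from the 55536 mouse genes counted in each library. They are the Id genes Id1, Id2, Id3 and Id4, the inhibitory Smads Smad6 and Smad7, the pseudoreceptor gene Bambi, and the matricellular genes Ccn1 and Ccn2, formerly Cyr61 and Ctgf. The rule names the genes and uses no measured value, though it was drawn up with earlier results of these data known. Each gene passed the low-count filter, which left 20307 genes.

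BMP and TGF-beta ligands bind paired serine/threonine kinase receptors, which phosphorylate receptor Smads that enter the nucleus with Smad4 and switch on target genes. Id genes are direct targets of BMP Smads, and their products lack a DNA-binding region and hold basic helix-loop-helix partners such as E proteins off DNA. Smad6, Smad7 and Bambi are induced by the pathway and damp it, while Ccn1 and Ccn2 encode secreted matrix proteins that respond to TGF-beta and also to YAP and TEAD factors. In the mouse hair follicle, BMP signals are known for keeping stem cells of the bulge at rest.

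RNA was sequenced from epidermal cells of the dorsal skin of adult male CD4Cre R26-tdT mice on a C57Bl6/N background. In these mice Cre is driven by the CD4 promoter, and cells that have expressed it, with their progeny, carry the red fluorescent tracer tdT; every group carries both alleles. Cells were sorted from a CD49f+CD34+ gate, in which CD49f is an integrin of basal keratinocytes and CD34 marks the bulge, and then split by the tracer and by Sca-1, a marker of upper-follicle and interfollicular keratinocytes. The groups were Sca-1+ tdT+ (n = 3), Sca-1+ tdT- (n = 2), Sca-1neg tdT+ (n = 3) and Sca-1neg tdT- (n = 3). Each library pools 2 mice, with mice aged 29 weeks for replicate 1 and 32 weeks for the other replicates. The labels do not say whether libraries come from separate sorts, so the p-values measure only the spread between these libraries.

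Total counts ran from 17409131 to 46542177 per library. The tracer stood at 224 to 307 CPM (counts relative to the library total) in Sca-1+ tdT+ and at 4.10 to 4.89 CPM in Sca-1+ tdT-, with 133 and 252 CPM for replicates 1 and 3 of Sca-1neg tdT+ and 2.54 to 3.78 CPM in Sca-1neg tdT-. The library labelled as Sca-1neg tdT+ replicate 2 had a tracer level of 2.05 CPM (exact 95% interval 1.44 to 2.83, counting error only), below the lowest tdT- library. It keeps its label below, and results that change without it are marked. Liver transcripts took 3.29% of counts in Sca-1neg tdT+ replicate 1, 1.85% in the library labelled as Sca-1neg tdT+ replicate 2 and 1.99% in Sca-1neg tdT- replicate 2, against at most 0.0287% elsewhere. Despite the CD34 gate, Cd34 RNA stood at 22.3 to 35.6 CPM in Sca-1+ tdT+, 319 to 382 CPM in Sca-1+ tdT-, 467 to 841 CPM in Sca-1neg tdT+ and 637 to 1129 CPM in Sca-1neg tdT-. Ly6a, the gene of Sca-1, stood at 153 to 294 CPM in Sca-1+ tdT+ and 172 to 186 CPM in Sca-1+ tdT-. It stood at 9.63 to 59.2 CPM in Sca-1neg tdT+, highest in the library labelled as replicate 2, and 2.45 to 5.74 CPM in Sca-1neg tdT-. Upper-follicle markers (10 genes) overlapped between the fractions, with sums of 3575 to 4842 CPM in Sca-1+ and 3075 to 7522 CPM in Sca-1neg libraries.

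On the mm10 build, Id1 lies at chr2:152736251-152737410 on the plus strand, Id2 at chr12:25093799-25097140 on the minus strand, Id3 at chr4:136143497-136145755 on the plus strand and Id4 at chr13:48261228-48266026 on the plus strand. Smad6 lies at chr9:63953076-64022059 on the minus strand, Ccn1 at chr3:145646976-145649981 on the minus strand and Ccn2 at chr10:24595442-24598683 on the plus strand. All 9 genes are annotated as protein coding. Exons of Id4 share 82 bases with A330033J07Rik and 171 bases with Gm49291, and exons of Ccn2 share 665 bases with Gm15270, each on the other strand. The library kit does not mark strand, so reads of these pairs cannot be told apart. The partners had at most 23, 10 and 125 counts in a library. The strand setting of the counting is not given, so these counts do not show how many reads fell in the shared bases.

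RefSeq promoter entries on GRCm38.p6, the assembly behind mm10, matched 5 of the 9 genes, namely Id2, Id3, Id4, Smad6 and Ccn1. The 250 bases before the RefSeq start are printed for Id4 and Smad6, which were called lower in Sca-1+ tdT+ than in Sca-1neg tdT+ cells, and for Ccn1, which was not. They run from the upstream end to the start and lie outside annotated exons of their genes, at chr13:48260866-48261115 on the plus strand, chr9:64022060-64022309 on the minus strand and chr3:145649986-145650235 on the minus strand. Capitals mark GGCGCC, the GC-rich Smad element, and CATTCC, the TEAD site.
Id4: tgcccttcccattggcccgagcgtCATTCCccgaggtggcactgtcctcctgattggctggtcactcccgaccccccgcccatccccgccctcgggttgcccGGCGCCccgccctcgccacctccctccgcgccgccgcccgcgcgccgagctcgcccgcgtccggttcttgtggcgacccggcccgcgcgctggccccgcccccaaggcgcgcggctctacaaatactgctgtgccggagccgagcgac
Smad6: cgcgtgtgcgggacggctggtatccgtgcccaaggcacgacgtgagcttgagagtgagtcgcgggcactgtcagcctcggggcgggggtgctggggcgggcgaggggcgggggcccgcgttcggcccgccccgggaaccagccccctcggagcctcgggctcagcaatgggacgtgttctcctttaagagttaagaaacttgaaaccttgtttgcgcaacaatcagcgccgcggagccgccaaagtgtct
Ccn1: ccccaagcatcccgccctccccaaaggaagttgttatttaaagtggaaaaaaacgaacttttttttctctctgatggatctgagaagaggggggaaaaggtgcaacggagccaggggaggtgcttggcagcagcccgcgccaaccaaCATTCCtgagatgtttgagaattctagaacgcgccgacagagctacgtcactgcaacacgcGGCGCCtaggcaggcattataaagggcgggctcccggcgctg
Both strands were searched for GGCGCC, for CAGACA (the Smad-binding element) and for CATTCC; matches of different motifs did not overlap in these windows. Id4 held GGCGCC 148 bases and CATTCC 226 bases before its start. Ccn1 held GGCGCC 42 bases and CATTCC 103 bases before its start. The part of these motifs in the levels of the genes was not tested. Smad6 held no match in this window. The RefSeq windows of Id2 and Id3 lie inside the annotated genes, with 161 and 250 of their 250 bases in exons of the same gene, and are not described further. Among 32851 promoters of the same length, 9.59% held GGCGCC, 17.13% held CAGACA and 12.64% held CATTCC. The windows of Id4, Smad6 and Ccn1 were 75.6%, 66.8% and 54.8% G or C, against a median of 52.4% over all promoters.

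Per kilobase of exon, Ccn1 was the most abundant of the 9 genes in every group, with mean levels of 526 RPKM (CPM per kilobase of exon) in Sca-1+ tdT+, 503 in Sca-1+ tdT-, 712 in Sca-1neg tdT+ and 956 in Sca-1neg tdT-. Ccn2 came next in 3 groups, at 86.4 RPKM in Sca-1+ tdT-, 156 in Sca-1neg tdT+ and 181 in Sca-1neg tdT-, but stood at 15.3 RPKM in Sca-1+ tdT+, below Id1 at 33.4 and Id3 at 36.3 RPKM. Smad6 and Bambi were the least abundant, with mean levels of 0.72 and 1.45 RPKM in Sca-1+ tdT+, 4.16 and 2.80 in Sca-1+ tdT-, 4.63 and 2.10 in Sca-1neg tdT+, and 6.72 and 1.93 in Sca-1neg tdT-. Ccn1 made up 73.9% to 85.8% of the summed CPM of the 9 genes in Sca-1+ tdT+ libraries, 61.5% and 69.6% in Sca-1+ tdT-, 50.3% to 60.6% in Sca-1neg tdT+ and 54.3% to 60.3% in Sca-1neg tdT-. A sum over the 9 genes therefore follows Ccn1 more than any other, and the genes are given one by one.

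**Figure D1:**
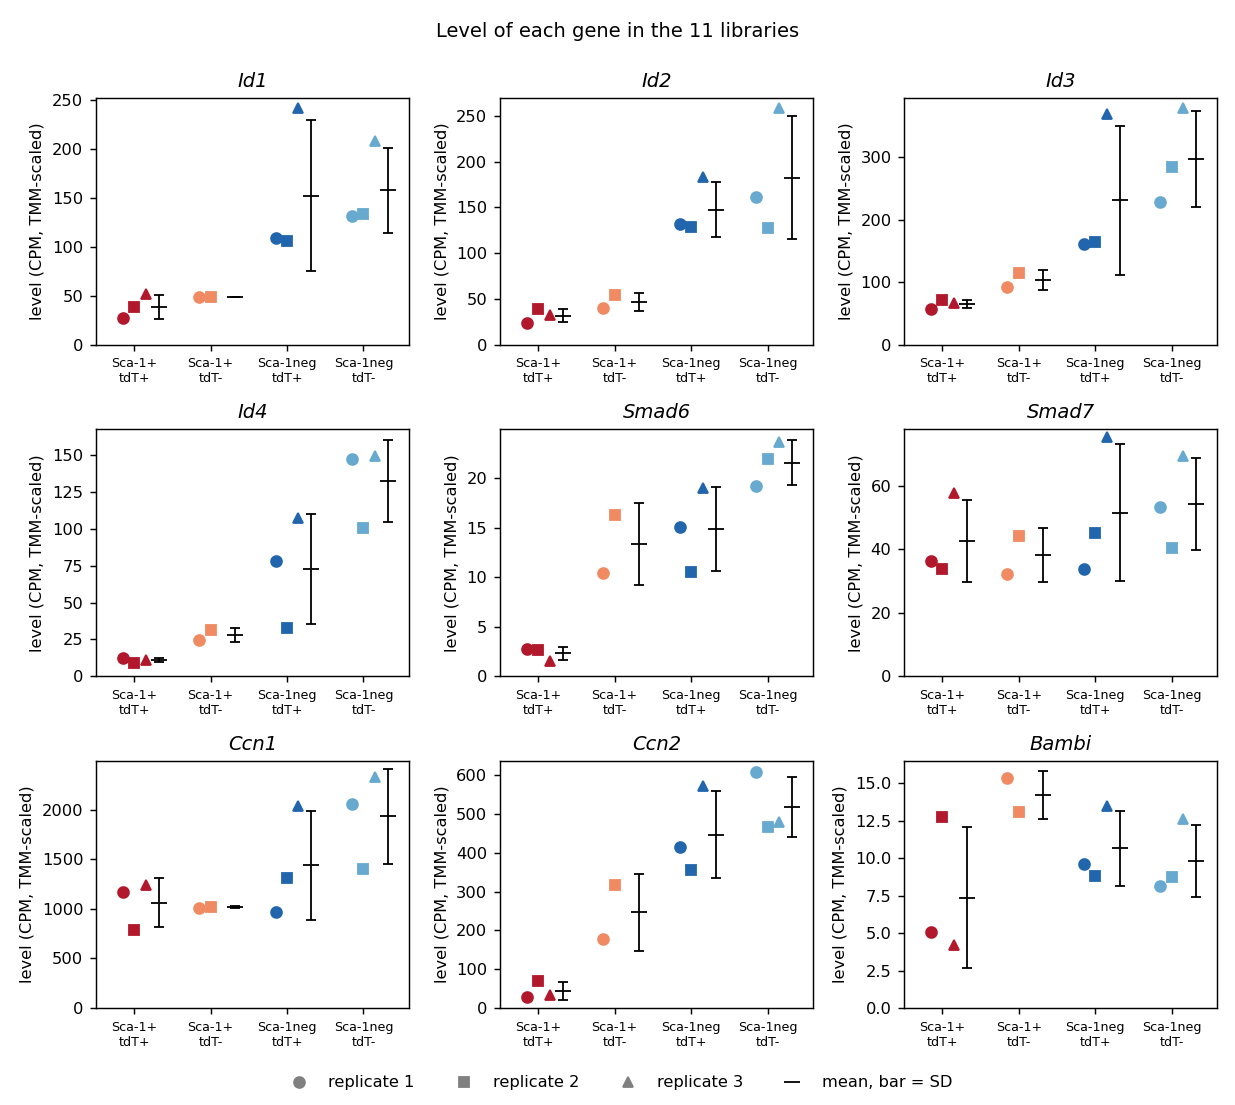
Level of each of the 9 genes (vertical axis, CPM, linear from 0, own scale per gene) in the 11 libraries, with groups ordered Sca-1+ tdT+, Sca-1+ tdT-, Sca-1neg tdT+ and Sca-1neg tdT- from left to right; points are libraries and bars are group means with the SD. The 4 Id genes are low in every Sca-1+ library, Smad6 and Ccn2 are low in the 3 Sca-1+ tdT+ libraries (1.55 to 2.72 CPM and 28.0 to 69.8 CPM), and Ccn1 and Smad7 overlap between most groups.

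The Id genes formed a step between the Sca-1 fractions. Id1 stood at 26.9, 38.0 and 51.5 CPM in Sca-1+ tdT+ replicates 1 to 3, 48.9 and 48.6 CPM in Sca-1+ tdT-, 109, 106 and 241 CPM in Sca-1neg tdT+ and 132, 133 and 208 CPM in Sca-1neg tdT-. Every Sca-1+ library was below every Sca-1neg library, and within each fraction the tdT+ and tdT- libraries overlapped. Id2, which like Id1 binds E proteins, stood at 23.97, 38.52 and 32.28 CPM in Sca-1+ tdT+, 39.8 and 53.8 CPM in Sca-1+ tdT-, 132, 128 and 183 CPM in Sca-1neg tdT+ and 162, 128 and 258 CPM in Sca-1neg tdT-. Its Sca-1+ libraries were again all below its Sca-1neg libraries, and the tdT+ libraries were below the tdT- libraries in the Sca-1+ fraction, by a gap smaller than the spread within Sca-1+ tdT+.

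Id3 showed the same order, with 57.5, 71.3 and 66.3 CPM in Sca-1+ tdT+, 92.3 and 115 CPM in Sca-1+ tdT-, 160.5, 164 and 369 CPM in Sca-1neg tdT+ and 228, 284 and 379 CPM in Sca-1neg tdT-. Id4, the member of the family with the steepest step between fractions, stood at 12.1, 9.30 and 11.1 CPM in Sca-1+ tdT+, 24.8 and 31.6 CPM in Sca-1+ tdT-, 77.9, 32.9 and 107 CPM in Sca-1neg tdT+ and 147, 101 and 149 CPM in Sca-1neg tdT-. For both genes the 4 groups followed the order Sca-1+ tdT+, Sca-1+ tdT-, Sca-1neg tdT+, Sca-1neg tdT- by their means, and the last pair of neighbours overlapped. The lowest Sca-1neg level of Id4, 32.9 CPM, came from the library labelled as Sca-1neg tdT+ replicate 2.

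Among the inhibitors, Smad6, which blocks mainly BMP Smads, was set apart in one group. It stood at 2.72, 2.67 and 1.55 CPM in Sca-1+ tdT+, 10.4 and 16.2 CPM in Sca-1+ tdT-, 15.1, 10.5 and 19.0 CPM in Sca-1neg tdT+ and 19.1, 21.9 and 23.6 CPM in Sca-1neg tdT-. The 3 Sca-1+ tdT+ libraries were below all others, while Sca-1+ tdT- and Sca-1neg tdT+ overlapped. Smad7, which blocks both branches of the pathway, stood at 36.4, 33.9 and 57.7 CPM in Sca-1+ tdT+, 32.2 and 44.3 CPM in Sca-1+ tdT-, 33.8, 45.2 and 75.5 CPM in Sca-1neg tdT+ and 53.2, 40.5 and 69.3 CPM in Sca-1neg tdT-, and all 4 groups overlapped. Bambi, a decoy receptor without a kinase, stood at 5.06, 12.8 and 4.23 CPM in Sca-1+ tdT+, 15.3 and 13.1 CPM in Sca-1+ tdT-, 9.63, 8.82 and 13.5 CPM in Sca-1neg tdT+ and 8.14, 8.70 and 12.6 CPM in Sca-1neg tdT-. The Sca-1+ tdT- libraries of Bambi were above its Sca-1neg tdT- libraries, and Sca-1+ tdT+ replicate 2 stood at 12.8 CPM where the other libraries of that group were near 5. On mm10, Smad7 lies at chr18:75367529-75395935 and Bambi at chr18:3507923-3516404, both on the plus strand.

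The matricellular pair parted. Ccn2, the TGF-beta-induced connective tissue growth factor, stood at 28.0, 69.8 and 33.7 CPM in Sca-1+ tdT+, 177 and 317 CPM in Sca-1+ tdT-, 415, 356 and 571 CPM in Sca-1neg tdT+ and 607, 468 and 480.4 CPM in Sca-1neg tdT-. Its Sca-1+ tdT+ libraries were below every other library, its Sca-1+ tdT- libraries lay between the fractions, and its Sca-1neg groups overlapped. Ccn1 stood at 1165, 784 and 1239 CPM in Sca-1+ tdT+, 1011 and 1022 CPM in Sca-1+ tdT-, 963, 1307 and 2040 CPM in Sca-1neg tdT+ and 2058, 1404 and 2331 CPM in Sca-1neg tdT-. Its groups overlapped, apart from Sca-1neg tdT-, which was above both Sca-1+ groups.

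In traced cells, Id1, Id2, Id3, Id4, Smad6 and Ccn2 were all lower in Sca-1+ than in Sca-1neg libraries, while Smad7, Ccn1 and Bambi did not pass the test. These 6 of 9 genes were called lower and none higher, where 12.7% of all genes were called and 6.73% were called lower; the same 6 genes were the ones whose groups did not overlap, all lower, where 30.4% of all genes did not overlap in either direction. By edgeR's quasi-likelihood test with Benjamini-Hochberg adjustment over all genes, the log2 fold change was -3.35 for Ccn2 (SE 0.38, adjusted p = 4.91e-04), -2.74 for Id4 (SE 0.38, adjusted p = 0.00148) and -2.68 for Smad6 (SE 0.33, adjusted p = 5.81e-04). It was -2.23 for Id2 (SE 0.28, adjusted p = 8.16e-04), -1.97 for Id1 (SE 0.36, adjusted p = 0.00682) and -1.83 for Id3 (SE 0.32, adjusted p = 0.00480). The log2 fold changes that did not pass were -0.54 for Bambi (adjusted p = 0.407), -0.44 for Ccn1 (adjusted p = 0.340) and -0.27 for Smad7 (adjusted p = 0.612). The median log2 fold change was -1.97 over the 9 genes and -0.07 over all genes tested. Without the library labelled as Sca-1neg tdT+ replicate 2 the 6 calls held, with Smad6 at -2.88 and Ccn2 at -3.49 on the log2 scale. Without Sca-1+ tdT+ replicate 2, Bambi was called lower too, at -1.22 (adjusted p = 0.0406). In the 32-week libraries alone only Id2, Smad6 and Ccn2 passed.

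**Figure D2:**
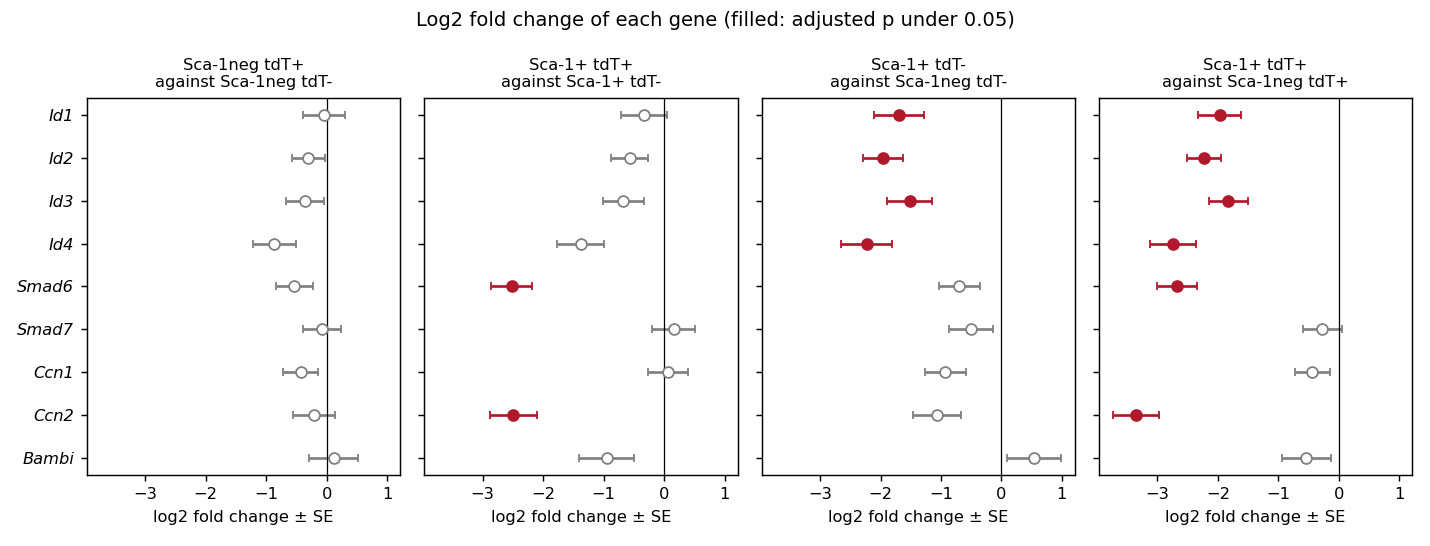
Log2 fold change with its SE (horizontal axis) of each of the 9 genes in the 4 comparisons between groups, from edgeR's quasi-likelihood model; filled points had an adjusted p under 0.05. Ccn2, Id4 and Smad6 show the largest falls, in Sca-1+ tdT+ against Sca-1neg tdT+ cells, and no point is filled for Sca-1neg tdT+ against Sca-1neg tdT- cells.

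Untraced cells of the Sca-1+ fraction had less of all 4 Id genes than untraced Sca-1neg cells. The 4 calls among the 9 genes, all lower, compare with 5.74% of all genes called and 2.06% called lower. The log2 fold change was -2.23 for Id4 (SE 0.43, adjusted p = 0.0163), -1.96 for Id2 (SE 0.33, adjusted p = 0.00874), -1.69 for Id1 (SE 0.41, adjusted p = 0.0419) and -1.52 for Id3 (SE 0.37, adjusted p = 0.0377). Ccn2 at -1.07 (adjusted p = 0.157), Ccn1 at -0.93 (adjusted p = 0.138), Smad6 at -0.69 (adjusted p = 0.291), Smad7 at -0.51 (adjusted p = 0.471) and Bambi at 0.53 (adjusted p = 0.548) did not pass. Groups did not overlap for 8 of 9 genes, 7 lower and Bambi higher, where 26.3% of all genes were lower and 19.9% higher without overlap in this comparison of 2 libraries with 3. The median was -1.07 over the 9 genes and -0.13 over all genes. These calls rest on few libraries: none was left without Sca-1+ tdT- replicate 1 and 1 was left (Id2) when either Sca-1+ tdT- replicate 2 or Sca-1neg tdT- replicate 3 was left out. With Sca-1neg tdT- replicate 2 or Sca-1+ tdT+ replicate 2 left out, Id2 and Id4 were the 2 left.

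Within the Sca-1+ fraction, tdT+ cells had less Smad6 and Ccn2 than tdT- cells. The log2 fold change was -2.52 for Smad6 (SE 0.34, adjusted p = 0.00330) and -2.50 for Ccn2 (SE 0.39, adjusted p = 0.00759), so 2 of 9 genes were called, both lower, where 2.74% of all genes were called and 2.34% were called lower. Id4 at -1.37 (adjusted p = 0.117), Bambi at -0.95 (adjusted p = 0.368), Id3 at -0.67 (adjusted p = 0.4216), Id2 at -0.57 (adjusted p = 0.442) and Id1 at -0.33 (adjusted p = 0.800) did not pass, nor did Smad7 at 0.16 (adjusted p = 0.922) and Ccn1 at 0.06 (adjusted p = 0.975). Groups did not overlap for Id2, Id3, Id4, Smad6, Ccn2 and Bambi, all lower, and these 6 of 9 genes compare with 17.2% of all genes. The median was -0.67 over the 9 genes and 0.04 over all genes. Id4 was called lower under 5 of 22 alternatives, among them DESeq2 (-1.41, adjusted p = 0.00763) and the fits that left out the library labelled as Sca-1neg tdT+ replicate 2 (adjusted p = 0.0100) or Sca-1neg tdT+ replicate 3 (adjusted p = 0.0486). Bambi was called lower without Sca-1+ tdT+ replicate 2 (-1.67, adjusted p = 0.0396). Ccn2 lost its call without Sca-1+ tdT- replicate 2 (adjusted p = 0.0581), and in the 32-week libraries alone, with 1 Sca-1+ tdT- library, neither passed (adjusted p = 0.103 for Smad6 and 0.0918 for Ccn2).

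Within the Sca-1neg fraction, no gene of the 9 passed between tdT+ and tdT- cells, where 0.0640% of all genes were called. Log2 fold changes ran from -0.86 to 0.12 with a median of -0.31, against -0.03 over all genes, and 8 of 9 were below 0, or 6 of 9 without the library labelled as Sca-1neg tdT+ replicate 2, where Id1 stood at 0.15 and Smad7 at 0.01. Id4, at -0.86 (SE 0.35, adjusted p = 0.574), was the 1 gene with an unadjusted p under 0.05, a level that 8.33% of all genes reached, and voom called it lower (adjusted p = 0.0380). Its log2 fold change was -0.52 when the same library was left out. Smad6 was the 1 gene of 9 whose groups did not overlap, with lower levels in tdT+ (-0.54, adjusted p = 0.690), as for 10.9% of all genes.

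The tdT effect on Smad6 and Ccn2 was not called different between the Sca-1 fractions. The difference was -1.99 on the log2 scale for Smad6 (SE 0.46, adjusted p = 0.0948) and -2.28 for Ccn2 (SE 0.52, adjusted p = 0.0953), and 0 of 9 genes passed where 0.483% of all genes did. Both had an unadjusted p under 0.05, as 12.2% of all genes did, and the Wald test of DESeq2 called both. The comparisons share libraries, and the difference of the tdT effect draws on every group. The Sca-1+ tdT+ libraries, for example, enter the traced comparison, the comparison within the Sca-1+ fraction and the difference. The values of the comparisons are therefore set side by side and not counted as separate evidence.

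Markers of other cell types moved with the groups. The 16 endothelial markers summed to 79.3 to 182 CPM in Sca-1+ tdT+, 5476 and 5997 CPM in Sca-1+ tdT-, 13.4 to 1304 CPM in Sca-1neg tdT+ and 55.9 to 188 CPM in Sca-1neg tdT-, with 1304 CPM in the library labelled as Sca-1neg tdT+ replicate 2. No endothelial marker was at 0 in a Sca-1+ library, at most 1 of 16 was at 0 in a Sca-1neg library, and Pecam1, an adhesion molecule of endothelium, stood at 13.3 to 32.9 CPM in Sca-1+ tdT+ and at 688 and 727 CPM in Sca-1+ tdT-. The lower Smad6 and Ccn2 of Sca-1+ tdT+ against Sca-1+ tdT- cells thus came with a lower endothelial sum. All 16 endothelial genes had negative log2 fold changes in that comparison (median -5.20, range -6.32 to -2.44), and 1, Egfl7, was called lower. In Sca-1neg tdT- libraries the endothelial sum was at most 188 CPM, with Smad6 at 19.1 to 23.6 CPM and Ccn2 at 468 to 607 CPM. These are cells of the other fraction, with the higher sums of bulge markers given below. Their levels do not show which cells of the Sca-1+ fraction held either gene. The part of endothelial cells in the lower Smad6 and Ccn2 was not tested.

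The 14 bulge markers summed to 8729 to 13001 CPM in Sca-1+ tdT+, 10706 and 12255 CPM in Sca-1+ tdT-, 16369 to 26036 CPM in Sca-1neg tdT+ and 22604 to 30650 CPM in Sca-1neg tdT-, and none was at 0 in any library. They moved in the same direction as the Id genes: 12 of 14 were called lower in Sca-1+ tdT+ against Sca-1neg tdT+ cells, 6 lower in Sca-1+ tdT- against Sca-1neg tdT- cells, 7 lower in Sca-1+ tdT+ against Sca-1+ tdT- cells, and none in Sca-1neg tdT+ against Sca-1neg tdT- cells. In sorted bulk samples a smaller share of bulge cells and less RNA of these genes per cell cannot be told apart. T cell markers (18 genes) summed to 666 to 1642 CPM in Sca-1+ tdT+, 204 and 227 CPM in Sca-1+ tdT-, 74.7 to 124 CPM in Sca-1neg tdT+ and 40.2 to 42.9 CPM in Sca-1neg tdT-, none at 0, and all 18 were called higher in Sca-1+ tdT+ against Sca-1neg tdT+ cells. Their part in the results was not tested. Basal keratinocyte markers (10 genes) summed to 36274 to 42606 CPM in Sca-1+ tdT+, 26386 and 29416 CPM in Sca-1+ tdT-, 19452 to 26599 CPM in Sca-1neg tdT+ and 27968 to 29251 CPM in Sca-1neg tdT-, so keratinocyte markers were abundant in every group.

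The sums of other lists followed the order of the Id genes, Smad6 and Ccn2 over the groups, ran against it or did neither. Pericyte and smooth muscle markers (9 genes) summed to 54.7 to 73.5 CPM in Sca-1+ tdT+, 111 and 219 CPM in Sca-1+ tdT-, 268 to 395 CPM in Sca-1neg tdT+ and 410.0 to 448 CPM in Sca-1neg tdT-. Most of this sum was Cspg4, a proteoglycan of pericytes, which averaged 53.9, 148, 307 and 406 CPM in the same groups. Cspg4 was called lower in both comparisons of Sca-1+ with Sca-1neg cells and in Sca-1+ tdT+ against Sca-1+ tdT- cells. The list did not move as a set: 4 of 9 genes had positive log2 fold changes in Sca-1+ tdT+ against Sca-1+ tdT- cells, and 6 of 9 in Sca-1neg tdT+ against Sca-1neg tdT- cells. Melanocyte markers (7 genes) summed to 17.2 to 28.4 CPM in Sca-1+ tdT+, 42.0 and 62.5 CPM in Sca-1+ tdT-, 102 to 131 CPM in Sca-1neg tdT+ and 109.8 to 163 CPM in Sca-1neg tdT-, and 2 of 7 were called lower between the traced groups. Dermal fibroblast markers (10 genes) summed to 298 to 782 CPM in Sca-1+ tdT+, 735 and 1139 CPM in Sca-1+ tdT-, 692 to 839 CPM in Sca-1neg tdT+ and 1080 to 1202 CPM in Sca-1neg tdT-, which did neither. Sparc and Col6a1 were called lower in Sca-1+ tdT+ against both Sca-1+ tdT- and Sca-1neg tdT+ cells. Thy1, also on the T cell list, was called higher in both comparisons of Sca-1+ with Sca-1neg cells. In Sca-1+ tdT- against Sca-1neg tdT- cells 8 of 10 fibroblast markers had positive log2 fold changes, with Col6a1 called lower. The sum of markers of differentiating epidermis (10 genes) ran against the order of the Id genes, at 7774 to 10868 CPM in Sca-1+ tdT+, 3597 and 7880 CPM in Sca-1+ tdT-, 2637 to 4944 CPM in Sca-1neg tdT+ and 1076 to 2367 CPM in Sca-1neg tdT-. The differentiation list did not move as a set. In Sca-1+ tdT+ against Sca-1+ tdT- cells 5 of its 10 genes had negative log2 fold changes, and none was called. Between traced groups 2 of its genes were called higher and 1 lower, and between untraced groups 4 higher and 1 lower. The lower gene was Calml3 in both. At most 3 pericyte genes and 1 melanocyte or fibroblast gene were at 0 in a library, and no differentiation gene was. The part of these cells in the results was not tested.

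**Figure D3:**
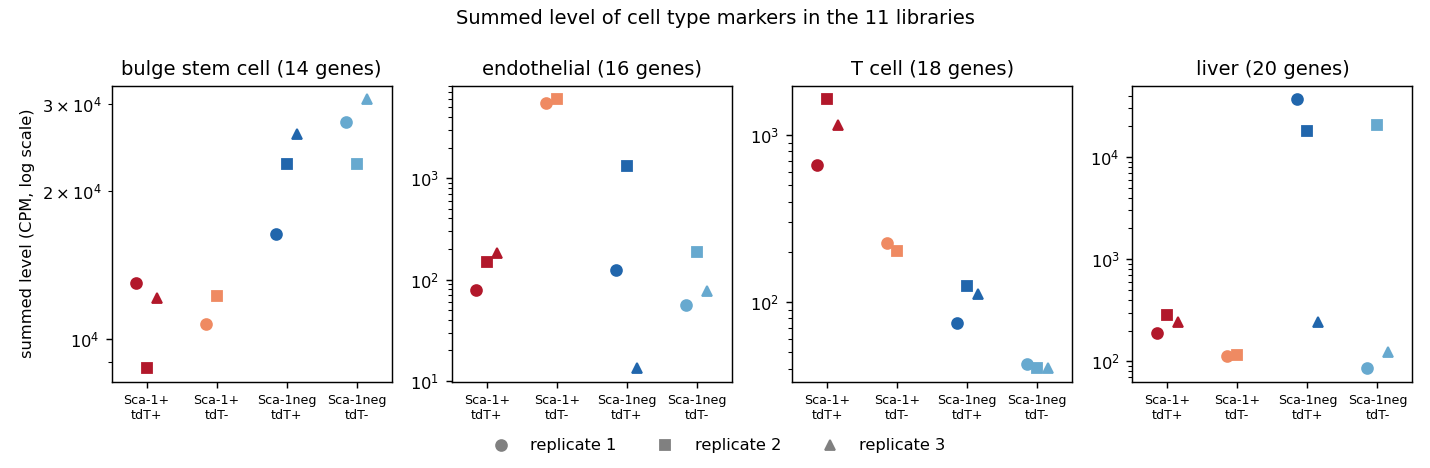
Summed level of bulge, endothelial, T cell and liver genes (1 panel each; vertical axis, CPM, log scale) in the 11 libraries, in the same group order; points are libraries. The 2 Sca-1+ tdT- libraries stand at 5476 and 5997 CPM of endothelial markers, and the Sca-1neg libraries hold the highest sums of bulge markers.

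Within the Sca-1neg fraction, 5 of the 9 genes (Id2, Id4, Smad7, Ccn1 and Ccn2) were lower in the libraries with liver transcripts with no overlap, as were 12.2% of all genes. In the 3 Sca-1neg libraries that held them, levels of Ccn1 were 963 to 1404 CPM, and in the remaining 3 Sca-1neg libraries 2040 to 2331 CPM. Smad7 stood at 33.8 to 45.2 CPM with liver transcripts and at 53.2 to 75.5 CPM without them. Ccn2 stood at 356 to 468 CPM with them and at 480.4 to 607 CPM without, and Id4 at 32.9 to 101 CPM with them and at 107 to 149 CPM without. Id1, Id3, Smad6 and Bambi overlapped between these libraries. These libraries include both tdT+ and tdT- cells and both ages, and the part of the liver transcripts in the levels was not tested. Leaving them out kept replicate 3 as the only Sca-1neg tdT+ library, so that fit cannot judge the traced comparison. That library had the highest Id1 and Id3 of its group, at 241 and 369 CPM. In Sca-1+ tdT- against Sca-1neg tdT- cells 5 genes passed without the libraries with liver transcripts.

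The rest of the pathway was read from 9 lists with 123 genes besides the 9, of which 117 were tested. In Sca-1+ tdT+ against Sca-1neg tdT+ cells 12 were called higher and 25 lower, in Sca-1+ tdT- against Sca-1neg tdT- cells 9 higher and 6 lower, in Sca-1+ tdT+ against Sca-1+ tdT- cells none higher and 13 lower, and in Sca-1neg tdT+ against Sca-1neg tdT- cells none in either direction. Without Sca-1+ tdT- replicate 1, Sca-1+ tdT- replicate 2 or Sca-1neg tdT- replicate 3, the 15 calls of the untraced comparison became 2, 9 and 8, and without Sca-1+ tdT- replicate 2 the 13 calls within the Sca-1+ fraction became 4. The medians of their log2 fold changes were -0.18, -0.14, -0.34 and -0.08 in that order of comparisons. Over all genes tested, 12.7%, 5.74%, 2.74% and 0.0640% were called in the same order. These were 1206 higher and 1366 lower, 748 and 418, 80 and 476, and 11 and 2. The same shares stand beside the counts of each list below. The pathway as a whole, like all genes, had calls in both directions between the Sca-1 fractions, and its genes are given by role. For the difference of the tdT effect between the fractions, none was called higher and 4 lower: Acvrl1, the follistatin-like gene Fstl1, the fibronectin-receptor integrin Itga5 and the ligand Bmp6. Their differences were -2.92, -2.81, -2.39 and -2.96 on the log2 scale (adjusted p = 0.00695, 0.0216, 0.0121 and 0.0403). Of all genes, 0.483% were called for this difference. These 4 calls became 1 without Sca-1+ tdT- replicate 2 and 2 when Sca-1+ tdT+ replicate 1, Sca-1+ tdT- replicate 1, Sca-1neg tdT- replicate 1 or Sca-1neg tdT- replicate 3 was left out. Some genes stand on other lists too: Bmp6, Ltbp2 and Postn are also bulge markers.

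Of 17 tested ligands, 3 were lower in Sca-1+ tdT+ against Sca-1neg tdT+ cells, namely Bmp6, a BMP ligand, Gdf10, a TGF-beta family ligand, and Inhbb, an activin subunit. Bmp6 averaged 4.74 ± 1.88 CPM in Sca-1+ tdT+, 32.6 ± 1.47 CPM in Sca-1+ tdT- and 50.3 ± 24.5 CPM in Sca-1neg tdT+ (SD; n = 3, 2 and 3), a log2 fold change of -2.78 within the Sca-1+ fraction (adjusted p = 0.00437) and -3.41 between traced groups (adjusted p = 4.20e-04). Bmp4 moved the other way in untraced cells, at 57.2 ± 25.5 CPM in Sca-1+ tdT- against 2.31 ± 1.28 CPM in Sca-1neg tdT- (log2 fold change 4.62, adjusted p = 0.0210).

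Of 16 receptors and co-receptors, Tgfbr2, the ligand-binding TGF-beta receptor, was higher in Sca-1+ cells of both tracer states. It averaged 191 ± 47.2 CPM in Sca-1+ tdT+ against 96.7 ± 26.5 CPM in Sca-1neg tdT+ (log2 fold change 0.98, adjusted p = 0.0135), and 234 ± 1.27 CPM in Sca-1+ tdT- against 93.7 ± 1.65 CPM in Sca-1neg tdT- (log2 fold change 1.32, adjusted p = 0.0113). Acvrl1, a type I receptor best known in endothelium, averaged 12.1 ± 2.81 CPM in Sca-1+ tdT+ against 103 ± 4.16 CPM in Sca-1+ tdT- (log2 fold change -3.09, adjusted p = 3.16e-04), alongside the endothelial markers given above. The co-receptor Tgfbr3 was higher in Sca-1+ tdT- against Sca-1neg tdT- cells, and Rgmb, a BMP co-receptor, was higher in Sca-1+ tdT+ against Sca-1neg tdT+ cells.

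Among 6 Smad signal carriers, 1 was higher and 1 lower between the traced groups: Smad3, a TGF-beta Smad, and Smad9, a BMP Smad of low level. The more abundant BMP Smads, Smad5 and Smad1, were not called there. They averaged 159 and 92.6 CPM in Sca-1+ tdT+ against 167 and 108 CPM in Sca-1neg tdT+. Smad3 averaged 88.4 ± 13.5 CPM in Sca-1+ tdT+ against 37.7 ± 9.06 CPM in Sca-1neg tdT+ (log2 fold change 1.23, adjusted p = 0.00412), and it was also higher in Sca-1+ tdT- against Sca-1neg tdT- cells (log2 fold change 1.38, adjusted p = 0.00859). Smad9, also known as Smad8, averaged 0.635 ± 0.546 CPM in Sca-1+ tdT+ against 17.9 ± 7.77 CPM in Sca-1neg tdT+ (log2 fold change -4.81, adjusted p = 0.00331).

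Antagonists and latent TGF-beta binders held the most calls between the traced groups. Of 18 tested, 1 was higher and 9 lower in Sca-1+ tdT+ against Sca-1neg tdT+ cells, and 5 were lower in Sca-1+ tdT+ against Sca-1+ tdT- cells. Grem1, a secreted BMP antagonist, averaged 24.3 ± 6.31 CPM in Sca-1+ tdT+, 116 ± 50.3 CPM in Sca-1+ tdT-, 484 ± 237 CPM in Sca-1neg tdT+ and 529 ± 183 CPM in Sca-1neg tdT-. It was lower in all 3 of the contrasts called, with log2 fold changes of -4.32 between traced groups (adjusted p = 4.26e-04), -2.19 between untraced groups (adjusted p = 0.0296) and -2.26 within the Sca-1+ fraction (adjusted p = 0.0271). Htra1, a secreted protease that acts on TGF-beta family signalling, was the 1 higher, at 255 ± 37.8 CPM in Sca-1+ tdT+ against 87.8 ± 9.48 CPM in Sca-1neg tdT+.

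Other targets did not follow the Id genes as a block. Of 12 other BMP targets, 2 were higher (Gata3 and Dlx5) and 2 lower (Atoh8 and Dlx3) in Sca-1+ tdT+ against Sca-1neg tdT+ cells, all transcription factors. Gata3 averaged 450 ± 147 CPM in Sca-1+ tdT+ against 166 ± 30.5 CPM in Sca-1neg tdT+. The sums of T cell and differentiation markers given above were also higher in Sca-1+ tdT+. Their part in these levels, or in those of the other pathway lists, was not tested. Of 16 other TGF-beta targets, Cdkn1a, a cell cycle inhibitor, was among 2 higher, and Postn, Tnc and Itgb8 were among 4 lower. Of 18 tested genes of the CCN family and of YAP and TEAD targets, 3 were higher, Amotl1 and F3 among them, and 2 lower, Tead2 and Arhgef17, so Ccn2 did not fall with its list as a whole. Of 9 intracellular inhibitors, Tob1 alone was called, lower, and of 18 immediate early genes, with which Ccn1 is often counted, 3 were called, all higher (Dusp1, Fosl1 and Klf6). Of all genes, 12.7% were called between the traced groups, so the counts of these last 2 lists are near that share.

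The partners of the Id proteins were measured too. Tcf12, an E protein, averaged 175 ± 2.36 CPM in Sca-1+ tdT+ against 439 ± 113 CPM in Sca-1neg tdT+ (log2 fold change -1.33, SE 0.21, adjusted p = 0.00241), and it was lower in Sca-1+ tdT- against Sca-1neg tdT- cells (log2 fold change -0.95, adjusted p = 0.0398). Tcf4, another E protein, averaged 62.5 CPM in Sca-1+ tdT+ against 139 CPM in Sca-1+ tdT- (log2 fold change -1.15, adjusted p = 0.00626). Ets1, an ETS factor, moved the other way and was higher in Sca-1+ cells of both tracer states. Of 6 genes on this list, 1 was higher and 2 lower between the traced groups.

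**Figure D4:**
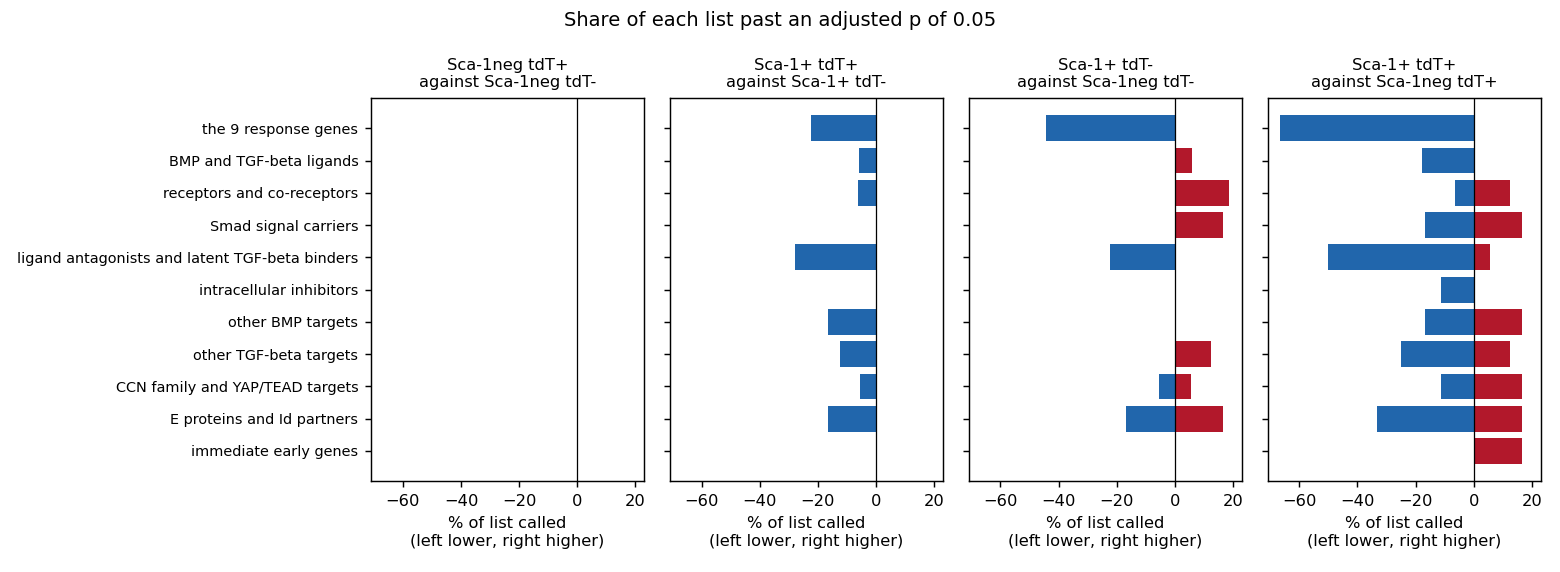
Share of each list past an adjusted p of 0.05 (horizontal axis, percent of the genes tested, lower to the left and higher to the right) in the 4 comparisons between groups. Bars to the left are longest for the 9 response genes and for the antagonists and latent binders in Sca-1+ tdT+ against Sca-1neg tdT+ cells, where 9 of 18 antagonists were lower.

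Across the 11 libraries the Id genes varied together, with Pearson r of log2 CPM from 0.90 for Id1 and Id4 to 0.97 for Id1 and Id3; these libraries share groups, depth and composition, and r is given as a description. The genes most like each member in pattern were Spg20 and Grik1 for Id1 (r = 0.97 each), Dmd and Crispld1 for Id2 (both 0.98), Ddah2 and Ift57 for Id3 (both 0.98) and Tcf12 and Begain for Id4 (both 0.98). For the inhibitors they were Selenom and Exoc3l2 for Smad6 (both 0.99), Vat1 and Dnajb2 for Smad7 (0.96 and 0.95) and Pigk and Zmpste24 for Bambi (both 0.91). For the matricellular genes they were Pi15 and Ldlrad3 for Ccn2 (both 0.99) and Pja2 and Thra for Ccn1 (0.98 and 0.97).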

How the data were processed

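The authors deposited 1 table of raw counts for each library, with 55536 mouse genes by Ensembl identifier and 1 further entry read as the tdT tracer, which was kept out of library totals and tests. Per the labels' protocols, cells were released with thermolysin, sorted by FACS and extracted with Trizol, and the TruSeq RNA v2 kit was used. Per the submitters' processing notes, the tools were STAR, featureCounts, bcl2fastq 2.20.0.422, DESeq2 1.18.1 and FastQC, with build mm10; for the annotation release, strand setting and multi-mapping reads, nothing is given in the sources used. Symbols were matched for 55450 genes.

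The tests used edgeR 4.0.16 under R 4.3.3: filterByExpr by group (20307 genes), TMM scaling, and a robust quasi-likelihood model with 4 group means on all 11 libraries (7 residual degrees of freedom). The threshold was a Benjamini-Hochberg adjusted p of 0.05 over all genes tested. SE is the absolute log2 fold change over the square root of F. CPM are TMM-scaled, and RPKM divide CPM by the merged GENCODE M21 exon length in kilobases. The test was tried on simulated counts with known 2-fold and 4-fold changes. Over the 4 comparisons between groups it recovered 6% to 14% of the 2-fold and 56% to 71% of the 4-fold changes. A gene that did not pass may therefore still differ. Among 55 pairs of libraries none held copies.

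The 9 genes and all lists were chosen with earlier results of these data known, so no list is independent support. All 9 genes are named; of other lists, up to 4 called genes with the lowest p are named per comparison. Nearest patterns are the 2 genes with the highest Pearson r of log2 CPM among those averaging at least 10 CPM. Alternatives were DESeq2 1.42.0, voom of limma 3.58.1 with quality weights, other scalings and filters, a replicate or age term, fits to the 32-week libraries only, and leaving libraries out. Promoter sequences are from RefSeq (GRCm38.p6).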

Additional observations from a re-analysis of the deposited data

How the results depend on the processing

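Of the 12 calls among the 9 genes, Id2, Smad6 and Ccn2 in Sca-1+ tdT+ against Sca-1neg tdT+ cells passed under all 22 alternatives, and no call changed direction under any. The fit without the libraries with liver transcripts is among the 22 and held only replicate 3 of Sca-1neg tdT+. The number of called genes was 6 in the traced comparison, 3 in the 32-week libraries alone and 6 to 7 when each library was left out in turn. In Sca-1+ tdT- against Sca-1neg tdT- cells it was 4, with 2 under no low-count filter, 7 with voom, 0 in the 32-week libraries alone and 0 to 4 with a library left out. In Sca-1+ tdT+ against Sca-1+ tdT- cells it was 2, with 3 by DESeq2, 0 in the 32-week libraries alone and 1 to 3 with a library left out. In Sca-1neg tdT+ against Sca-1neg tdT- cells it was 0, and 1 with voom. For the difference of the tdT effect it was 0, with 2 by DESeq2, 1 without a low-count filter, 1 with voom and 0 to 1 with a library left out. The cause of these changes was not tested, beyond the fewer libraries in the 32-week and left-out fits. Counts over all genes ranged, over the alternatives, from 0 to 400 around 13 (Sca-1neg tdT+ against tdT-), 64 to 1470 around 556 (Sca-1+ tdT+ against tdT-), 9 to 4232 around 1166 (untraced), 345 to 4652 around 2572 (traced) and 0 to 841 around 98 (difference). Calls on the 9 pathway lists together ranged from 0 to 3 around 0, 3 to 25 around 13, 0 to 52 around 15, 6 to 50 around 37 and 0 to 14 around 4 in that order, and single lists moved too (ligands between traced groups, 3 called, had 1 to 7 with a library left out, and between untraced groups, 1 called, had 0 to 2). DESeq2 size factors moved the median of all genes by -0.12 on the log2 scale in the difference and by less than 0.1 elsewhere. Whether replicate numbers pair the samples was not settled. Deviations from group means correlated at -0.42 to 0.59 (median 0.08) for same-numbered pairs and -0.60 to 0.51 (median -0.02) for others. Deviations within a group of 2 or 3 libraries are tied to each other, so this check cannot exclude pairing. The replicate block left the called genes at 6, 4, 2, 0 and 0 in the order above. Sca-1+ tdT- has 2 libraries, and Smad6 had as few as 30 counts in a library, which limits both.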
